A study of Mus musculus with 4 samples.

Results

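The mTORC1 brakes described here are 8 genes whose products hold back mTOR complex 1: Ddit4, Ddit4l, Sesn1, Sesn2, Sesn3, Deptor, Tsc1 and Tsc2. They were picked by gene symbol from the 45777 genes of the series, and all 8 were found. The rule uses no measured value, but the set was drawn up with earlier results of these data known. RNA sequencing had been done on 4 cultures of C2C12 myotubes, the multinucleate muscle cells that this mouse myoblast line forms in low serum. All 4 grew in DMEM containing 2% horse serum and 1% PS, as the labels write it, and each group is 1 library: clenbuterol, a control for clenbuterol, EPS and a control for EPS. The series compares EPS and clenbuterol as models of exercise in culture. EPS is read as electrical pulse stimulation, which the labels do not spell out, and clenbuterol is an agonist of β2-adrenergic receptors, which signal through cyclic AMP. The treatment field names 30 ng/ml clenbuterol for every library, controls and EPS included, so titles alone set the groups. The sources used here give no exposure times or pulse settings. For the EPS pair the titles and the data names disagree: the values named EPS belong to the record titled as its control, and the reverse. Libraries are called by title below, EPS-titled and EPS-control-titled, and each EPS difference turns round if the data names hold. Ratios across the pairs would then keep their values, but their EPS-pair library would change between stimulated and control.

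mTOR complex 1 is a kinase complex on the lysosome that promotes protein synthesis and cell growth and restrains autophagy when amino acids, energy and growth factors are plentiful. In muscle it is a main switch between growth and wasting. Its brakes act at different points. The tuberous sclerosis proteins switch off the small GTPase Rheb, and the DDIT4 proteins act through the tuberous sclerosis complex. The sestrins respond to stress and act on the Rag GTPase branch through GATOR2, and DEPTOR binds mTOR itself. Ddit4 is known to be induced by hypoxia, glucocorticoids and ATF4, Sesn2 by ATF4 and p53, Sesn1 by p53, and Sesn3 by FOXO factors.

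The stretches upstream of 3 of these genes are shown because Ddit4 differed most in the clenbuterol pair, Sesn2 was among the members that differed most in the EPS pair, and Ddit4l is the paralogue of Ddit4. Each is the 250 bases before the annotated start on the gene's own strand, from the RefSeq promoter table of GRCm38.p6, at chr10:59951771-59952020 on the minus strand for Ddit4, chr3:137623422-137623671 on the plus strand for Ddit4l and chr4:132510457-132510706 on the minus strand for Sesn2. Capitals mark matches to the letters searched, on either strand: ACGTG and GCGTG for Ddit4 and GCGTG, read on the other strand, for Ddit4l. Sesn2 had no match and stays in lower case.
Ddit4: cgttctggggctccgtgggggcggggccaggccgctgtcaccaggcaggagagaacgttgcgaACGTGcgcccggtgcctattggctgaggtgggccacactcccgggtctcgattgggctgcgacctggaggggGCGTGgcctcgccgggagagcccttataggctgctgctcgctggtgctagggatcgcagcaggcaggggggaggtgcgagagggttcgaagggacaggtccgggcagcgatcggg
Ddit4l: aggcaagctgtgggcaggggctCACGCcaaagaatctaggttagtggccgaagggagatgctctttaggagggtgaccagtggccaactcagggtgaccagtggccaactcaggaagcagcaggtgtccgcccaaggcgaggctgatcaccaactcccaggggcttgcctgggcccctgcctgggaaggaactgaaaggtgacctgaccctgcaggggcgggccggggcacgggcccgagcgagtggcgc
Sesn2: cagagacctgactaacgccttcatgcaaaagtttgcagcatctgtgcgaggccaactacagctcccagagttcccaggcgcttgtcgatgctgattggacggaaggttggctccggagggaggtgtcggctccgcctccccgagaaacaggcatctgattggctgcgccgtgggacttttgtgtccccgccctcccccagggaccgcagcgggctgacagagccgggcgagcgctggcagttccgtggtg

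Motifs were searched on both strands over 250 bases before and 50 after each start in 8 promoters of 7 members, Sesn1 having 2 starts; Deptor has no entry in that table. Ddit4 held ACGTG with its first base 187 bases upstream and GCGTG 115 bases upstream, the core letters that hypoxia-inducible factors bind. ACGTG was held by 19.6% and GCGTG by 32.4% of all 32851 promoters. Ddit4 was the only member with ACGTG, while GCGTG occurred in 5 of the 8 member promoters. Over the 250 bases before the start, G and C made up 70% for Ddit4 and 54.4% to 71.2% over the 8. The median over all promoters was 52.4%, and the shares were not adjusted for this. The full cyclic AMP response element TGACGTCA was in none of the 8 and in 1.79% of all promoters. Its core TGACG, which lies within the full element, was in the promoter of Tsc1 and in that of the downstream start of Sesn1, against 20.8% of all. For Tsc1 and Tsc2 the promoter table has starts inside the genes as placed below. Their upstream windows, chr2:28640983-28641232 and chr17:24632628-24632877, therefore overlap the genes, and the Tsc1 match lies inside Tsc1. TGATGCAA, a composite ATF4 and C/EBP element, was in none of the 8 and in 0.895% of all. The FOXO element GTAAACA was in that of the upstream start of Sesn1, 22 bases past the start, against 3.65% of all. The Sesn2 window held none of these letters. A match is a run of letters and not a bound site, and elements farther from the starts were not searched.

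Total estimated counts ran from 32640884 to 35597074 per library, and 13412 to 13489 genes reached a TPM of 1, the deposited unit that corrects counts for transcript length and library size. All 8 myotube markers, among them Myog and the myosin gene Myh3, were at a TPM of at least 1 in every library. Their summed TPM was 11717 with clenbuterol, 11040 in its control, 7294 in the EPS-titled library and 11200 in the EPS-control-titled library, but Acta1, skeletal actin, carries most of each sum (8891, 8270, 5723 and 9090 TPM). Of the 8, 7 were lower in both EPS-pair libraries than in both clenbuterol-pair libraries, all but Acta1. Myh3 stood at 813 and 779 TPM in the clenbuterol library and its control, 427 in the EPS-titled and 657 in the EPS-control-titled library. Within the EPS pair 0 of the 8 had a ratio above 1 by title (median log2 −0.57). In these bulk cultures fewer myotubes and less of these transcripts per myotube cannot be told apart. The 4 markers of undifferentiated myoblasts summed to 102 to 164, mostly from the cell-cycle genes Mki67 and Top2a. Myf5, Mki67 and Top2a were higher in both EPS-pair libraries than in both clenbuterol-pair libraries. Pax7 was not, at 1.39, 0.787, 0.571 and 1.09 TPM for clenbuterol, its control, EPS-titled and EPS-control-titled. The 4 adipocyte markers, the immune markers Ptprc and Adgre1 and the osteoblast marker Ibsp were at 0 throughout. Summed osteoblast markers stayed between 7.52 and 13.0 TPM and immune and endothelial markers between 2.85 and 4.88. Bglap carried most of the first sum, at 12.1, 12.8, 9.43 and 7.52 TPM for clenbuterol, its control, EPS-titled and EPS-control-titled. Cd68 carried most of the second, at 2.79, 4.88, 4.70 and 3.29 in the same order. With 1 library a group no value below has a replicate, conditions could not be tested against each other, and differences are given by size. Folds are ratios of CPM, which are counts divided by scaled library totals, with a 95% interval that covers counting error only.

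Deptor was the most abundant brake transcript in every library and Ddit4l the least. Deptor made up 44.1% of the summed TPM of the 8 genes with clenbuterol, 52.5% in its control, 35.2% in the EPS-titled library and 33.8% in the EPS-control-titled library. Ddit4 was second in 3 libraries and sixth, the place below Tsc1, in the clenbuterol control. Tsc2 came next after Ddit4 in those 3 libraries and was second in the clenbuterol control. Among the 3 sestrins and Tsc1 the order from the top was Sesn3, Sesn1, Tsc1 and Sesn2 in all libraries but the EPS-titled, where it was Sesn2, Sesn1, Sesn3 and Tsc1. Sesn1 and Sesn3 were close in the clenbuterol pair (22.6 and 22.7, then 21.8 and 22.6).

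**Figure D1:**
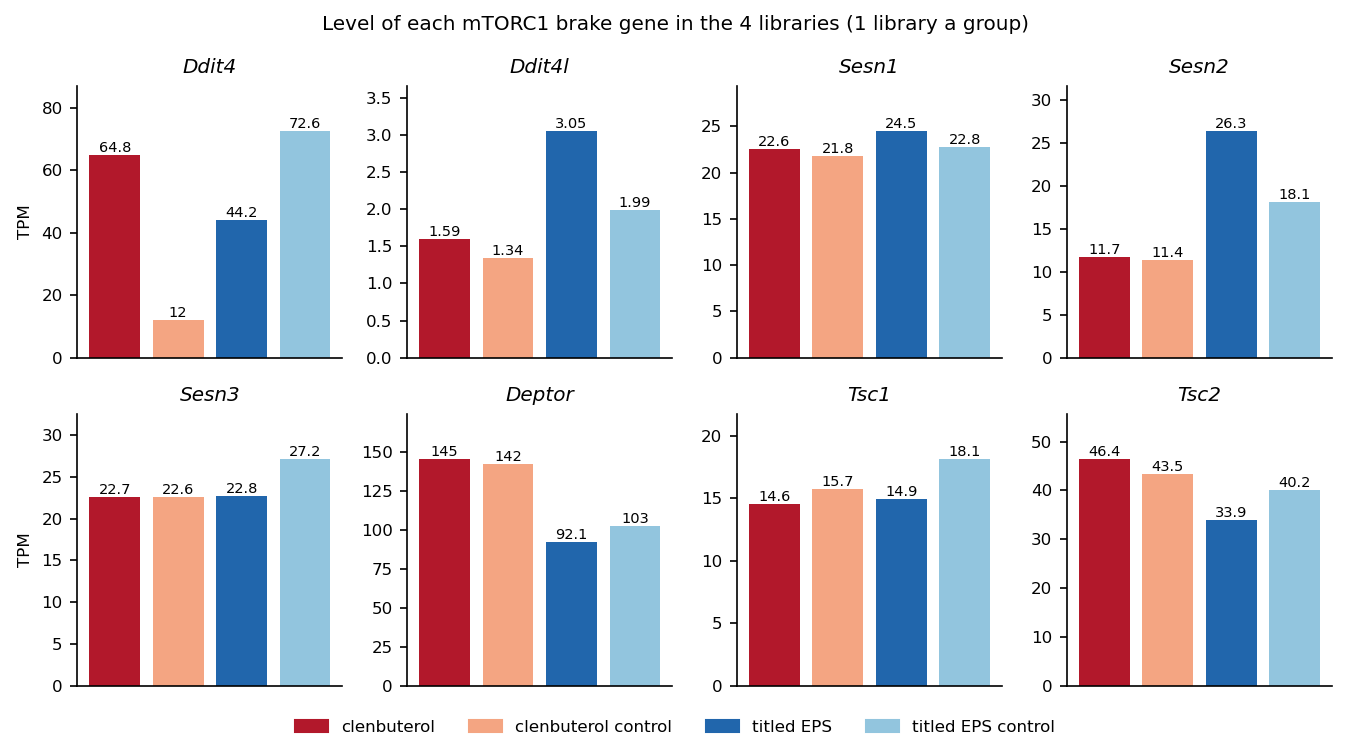
TPM of the 8 brake genes, 1 panel a gene with its own vertical axis from 0, and 1 bar for each of the 4 libraries (no error bars, since each group is 1 library). Ddit4 is low in the clenbuterol control alone (11.96), Sesn2 and Ddit4l are highest in the EPS-titled library, and Deptor is higher in both clenbuterol libraries than in both EPS libraries.

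Clenbuterol against its control was the first comparison. Ddit4 (mm10 chromosome 10, 59949675 to 59951770, minus strand), which encodes the stress-induced protein REDD1, was the only brake past 2-fold. Clenbuterol gave a TPM of 64.8 and the control 11.96, from 1565 and 293 counts, and 44.2 and 72.6 in the EPS-titled and EPS-control-titled libraries. The clenbuterol control therefore stood apart from the other 3 libraries, which lay within 1.64-fold of each other. The CPM of Ddit4 was 5.50-fold higher with clenbuterol (4.85 to 6.25). By its log2 ratio of TPM + 1, 2.34, Ddit4 ranked 12th from the top of the 13788 genes that reached 1 TPM in either library of the pair.

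Set against the libraries of the other pair, the same clenbuterol library gave other answers for Ddit4. Its CPM was 1.49-fold that of the EPS-titled library (1.38 to 1.61) and 0.934-fold that of the EPS-control-titled library (0.871 to 1.00). The clenbuterol control, in turn, was at 0.170-fold the EPS-control-titled library (0.150 to 0.192). The libraries titled as controls thus lay as far apart in Ddit4 as the clenbuterol pair, with overlapping counting intervals for the inverse, 5.89 (5.20 to 6.69), and for 5.50 (4.85 to 6.25). By the data names the EPS-titled library is the control instead, and it stood 3.68-fold above the clenbuterol control (3.24 to 4.20). How far untreated cultures vary in Ddit4 cannot be told from single libraries.

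The 8 brakes were chosen with earlier results of these data known. All 8 passed the filter of a TPM of at least 1 in the clenbuterol pair. Of these, 1 was at least 2-fold higher in TPM + 1 and 0 were lower, where 1.00% of all 13788 genes were higher and 0.515% lower. The other 7 had log2 ratios between −0.10 (Tsc1) and 0.15 (Ddit4l), and the median of the 8 was 0.04, against −0.01 for all genes.

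Ddit4l, the paralogue of Ddit4 known as REDD2, lies on chromosome 3 at 137623672 to 137628332. The clenbuterol library stood at 1.59 TPM against 1.34, on 63 and 54 counts, a CPM ratio of 1.20 (0.822 to 1.76). Its counting interval holds 1, so a difference was not detectable at this depth. Ddit4 exceeded Ddit4l in TPM 40.7-fold with clenbuterol, 8.92-fold in its control, 14.5-fold in the EPS-titled library and 36.5-fold in the EPS-control-titled library.

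The sestrins were nearly level within the clenbuterol pair. Sesn1 (chromosome 10, 41810574 to 41908436) stood at 22.6 and 21.8 TPM, a CPM ratio of 1.03 (0.940 to 1.13). Sesn2 (chromosome 4, 132492804 to 132510456) stood at 11.7 and 11.4, a ratio of 1.05 (0.917 to 1.20). Sesn3 (chromosome 9, 14276301 to 14326134) stood at 22.7 and 22.6, a ratio of 1.02 (0.917 to 1.13). All 3 intervals hold 1, and the widest reaches 1.20-fold.

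Deptor and the TSC genes also differed little with clenbuterol. Deptor (chromosome 15, 55112317 to 55259273), whose product binds mTOR directly, was at 145 and 142 TPM on 17790 and 17637 counts, 1.04-fold higher in CPM (1.02 to 1.06). Tsc1 (chromosome 2, 28640993 to 28691172), which encodes the stabilising subunit hamartin, was at 14.6 and 15.7, a ratio of 0.939 (0.877 to 1.01). Tsc2 (chromosome 17, 24595816 to 24632676), which encodes the GTPase-activating subunit tuberin, was at 46.4 and 43.5, 1.08-fold higher (1.03 to 1.13). The last 699 bases of Tsc2 overlap Pkd1 on the opposite strand, and no source used here says whether the counting used strand. Pkd1 itself ranged only from 55.3 to 67.1 TPM.

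**Figure D2:**
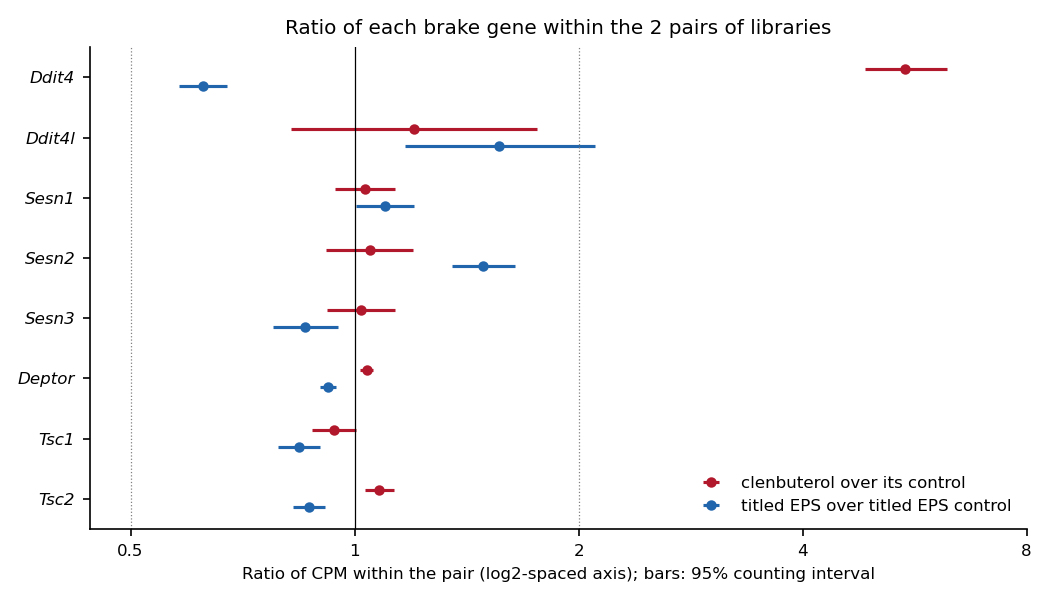
Ratio of CPM for each brake gene within the clenbuterol pair (red) and the EPS pair by title (blue), on a log2-spaced axis with 95% counting intervals as bars and dotted lines at 2-fold. Ddit4 lies at 5.50 in the clenbuterol pair and 0.626 in the EPS pair, and every other ratio lies between 0.843 and 1.56.

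The EPS-titled library against the EPS-control-titled library was the second comparison. No brake reached 2-fold: 0 of 8 were higher and 0 lower in TPM + 1, where 0.868% of 13828 genes were higher and 1.14% lower. Log2 ratios of TPM + 1 ran by title from −0.70 (Ddit4) to 0.52 (Sesn2) with a median of −0.20, against −0.02 for all genes. Ddit4, Sesn3, Deptor, Tsc1 and Tsc2 were lower by title and Ddit4l, Sesn1 and Sesn2 higher. All 8 myotube markers were lower in the EPS-titled library as well, and their part in these differences was not tested.

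Ddit4 had the lowest ratio of the 8 by title, and would have the highest by the data names. From 1164 counts in the EPS-titled library and 1679 in the EPS-control-titled library, its CPM ratio was 0.626 by title (0.580 to 0.675), which turned round is 1.60 (1.48 to 1.72). Both values exceed the clenbuterol control, by 3.68-fold for the EPS-titled library (3.24 to 4.20) and 5.89-fold for the EPS-control-titled library (5.20 to 6.69).

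Sesn2 and Ddit4l stood on the other side. Sesn2 had a TPM of 26.3 in the EPS-titled library and 18.1 in the EPS-control-titled library, from 1093 and 662 counts, 1.49-fold higher by title (1.35 to 1.64), or 0.671-fold by the data names (0.608 to 0.740). Against the clenbuterol control the EPS-titled library was 2.31-fold higher in Sesn2 (2.06 to 2.58). Ddit4l had a TPM of 3.05 and 1.99, from 130 and 75 counts, 1.56-fold higher by title (1.17 to 2.11), or 0.639-fold by the data names (0.475 to 0.856). For both genes the libraries fell in the same order, titled EPS highest, then titled EPS control, clenbuterol and the clenbuterol control.

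The other 5 members differed less. Sesn1 was at 24.5 and 22.8 TPM, a CPM ratio of 1.10 (1.00 to 1.20). Sesn3 was at 22.8 and 27.2, a ratio of 0.859 (0.777 to 0.949). Deptor was at 92.1 and 103 TPM, a ratio of 0.922 (0.899 to 0.945). Tsc1 was at 14.9 and 18.1, a ratio of 0.843 (0.790 to 0.899), and Tsc2 at 33.9 and 40.2, a ratio of 0.868 (0.825 to 0.912). Their counting intervals exclude 1, for Sesn1 only just, but the spread between cultures is unknown.

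**Figure D3:**
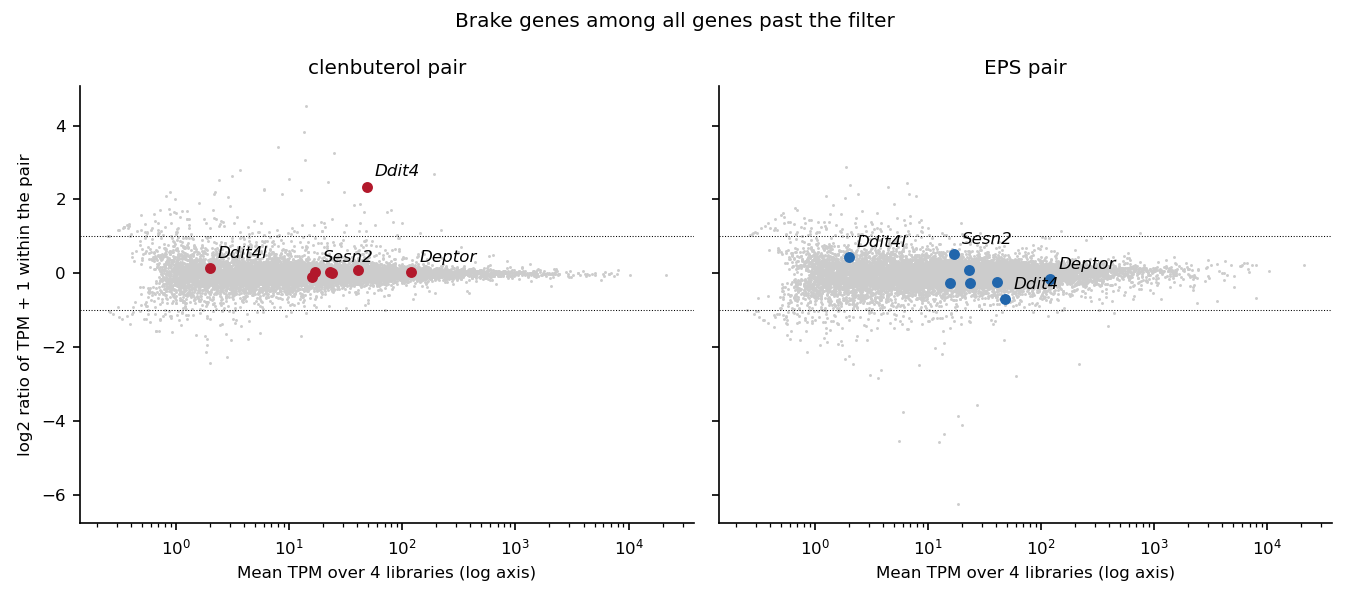
Log2 ratio of TPM + 1 within each pair against mean TPM over the 4 libraries (log axis), 1 point a gene, with the 8 brakes coloured and dotted lines at 2-fold. In the clenbuterol pair Ddit4 lies far above the dotted line at 2.34, while in the EPS pair all 8 lie between −0.70 and 0.52.

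For Deptor and Sesn2 the libraries also separated by culture pair. Deptor was higher in both clenbuterol-pair libraries (145 and 142 TPM) than in both EPS-pair libraries (92.1 and 103), with a smallest gap of 1.38-fold. Tsc2 was higher too, with a smallest gap of 1.08-fold. Sesn2 was lower in both clenbuterol-pair libraries (11.7 and 11.4 TPM) than in both EPS-pair libraries (26.3 and 18.1), with a smallest gap of 1.55-fold. Ddit4l was lower by a smallest gap of 1.25-fold, and for Sesn1 and Sesn3 the gap was 1.01-fold and 1.00-fold. Hence 2 of 8 brakes lay above and 4 below without overlap in TPM, where 25.1% of all 14213 genes lay above and 34.7% below. In CPM the pairs overlapped for Sesn1 and Sesn3. Sesn1 was at 27.04 in the clenbuterol control and 27.00 in the EPS-control-titled library. Sesn3 was at 21.6 with clenbuterol and 21.2 in the EPS-titled library. The cell markers separated too: 7 of 8 myotube markers lay above in the clenbuterol pair (median log2 difference, EPS pair minus clenbuterol pair, −0.59) and 3 of 4 myoblast markers below (0.52), and their part in the brake differences was not tested. Such separation is frequent among all genes, and treatment and any other difference between the culture pairs cannot be told apart.

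Ratios between members also differed by pair. Tsc2 exceeded Tsc1 in TPM 3.19-fold with clenbuterol and 2.76-fold in its control, but 2.27-fold and 2.21-fold in the EPS-titled and EPS-control-titled libraries. Deptor exceeded Mtor, the kinase it binds, 4.44-fold and 4.51-fold in the clenbuterol pair and 3.90-fold and 3.88-fold in the EPS pair. The summed TPM of the 3 sestrins was 57.0 and 55.8 in the clenbuterol pair and 73.6 and 68.1 in the EPS pair, in the same order of libraries.

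The rest of the pathway differed less than Ddit4 within either pair. Of 70 listed genes of the mTOR complexes, their activators, sensors, upstream kinases, substrates and readouts, 67 passed the filter in each pair. None of these 67 was at least 2-fold higher or lower in either pair. Of all genes 1.00% were higher and 0.515% lower in the clenbuterol pair, and 0.868% and 1.14% in the EPS pair. A count of 0 among 67 is near those shares. The median log2 ratio of the 67 was −0.02 in the clenbuterol pair and −0.03 in the EPS pair. Among the genes listed with the mTOR complexes, Prr5, a partner of mTOR complex 2, had the highest ratio with clenbuterol. It stood at 22.7 against 13.2 TPM, 1.59-fold in CPM (1.41 to 1.80). Telo2 was lowest (log2 −0.30). Under EPS by title Mlst8 was highest (0.06) and Rptor, the scaffold that defines mTOR complex 1, lowest at 55.9 against 73.8 TPM, a CPM ratio of 0.799 (0.770 to 0.829). Rheb, the GTPase on which the tuberous sclerosis complex acts, ranged from 110 to 123 TPM over the 4 libraries. Of the genes listed with Rheb, Rhebl1 was highest (log2 0.25) and Tbc1d7 lowest (−0.08) with clenbuterol. Under EPS by title Tbc1d7 was highest (0.17) and Rhebl1 lowest (−0.45).

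Among the Rag GTPases and their partners, Fnip2, which works with folliculin, was highest with clenbuterol (log2 0.15) and lowest under EPS by title (−0.54). Flcn was lowest with clenbuterol (−0.20) and Lamtor5 highest under EPS (0.34). Of the amino acid sensing complexes, Castor1, an arginine sensor, was highest (0.30) and Itfg2 lowest (−0.12) with clenbuterol, and Sec13 highest (0.29) and Castor2 lowest (−0.33) under EPS. Of the upstream kinases, Stk11, which encodes LKB1, was highest (0.11) and the AMPK subunit gene Prkab2 lowest (−0.29) with clenbuterol. Under EPS the AMPK subunit gene Prkab1 was highest (0.19) and Strada lowest (−0.22).

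Among substrates and readouts, Tfeb, a transcription factor of lysosomal genes, was highest with clenbuterol (log2 0.24) and Eif4e, the cap-binding factor, lowest (−0.86). Eif4e had a TPM of 34.0 against 62.6 but 2749 against 2887 counts, a CPM ratio of 0.980 (0.930 to 1.03), so the 2 deposited units disagree for this gene. For the 8 brakes, TPM and CPM ratios differed by at most 1.57% in the clenbuterol pair and 2.65% in the EPS pair. Under EPS by title Eif4ebp3 was highest (0.31) and the autophagy kinase gene Ulk1 lowest (−0.49).

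**Figure D4:**
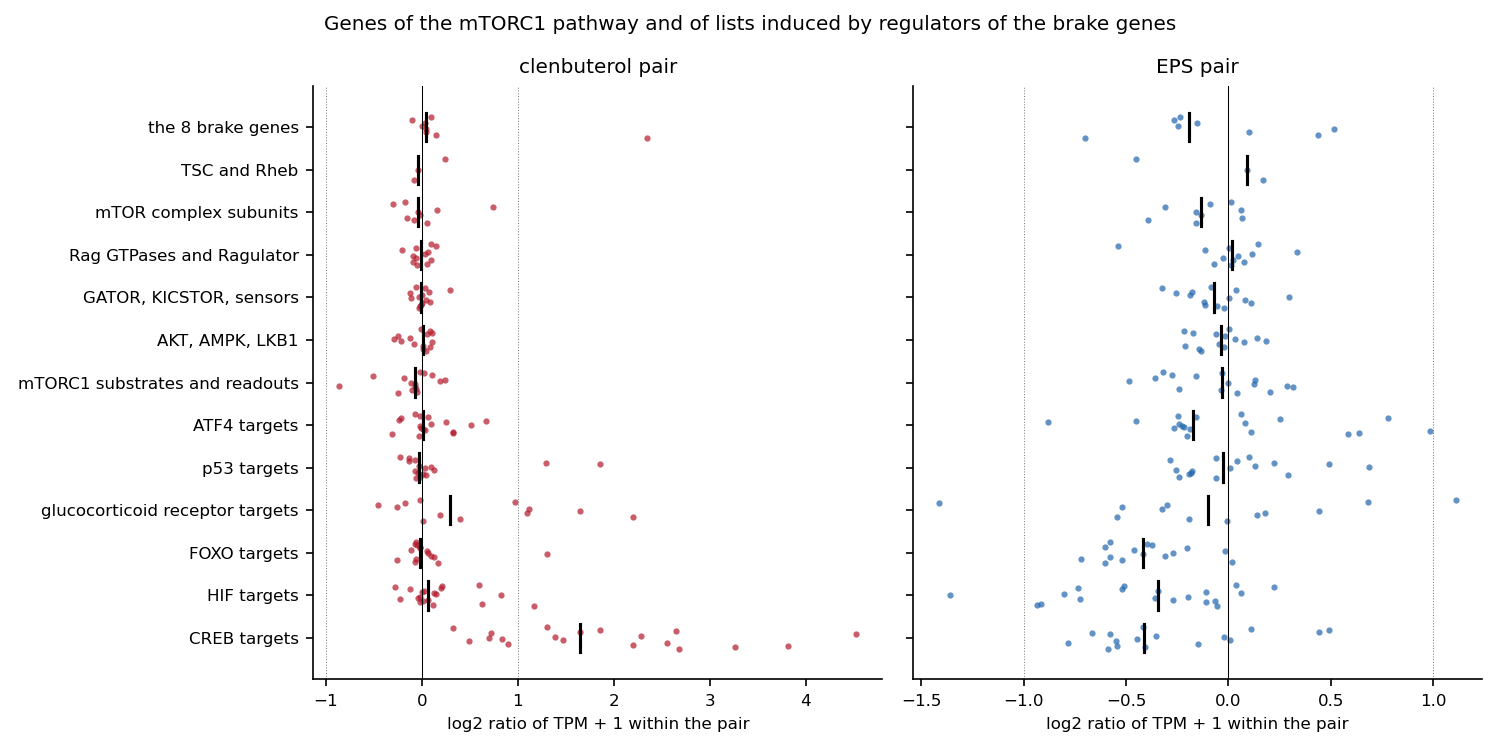
Log2 ratio of TPM + 1 within each pair for the 8 brakes, 6 pathway lists and 6 lists of genes induced by regulators. CREB is not among the regulators of the brakes named in the text, and the lists were chosen with earlier results of these data known. Each point is 1 gene past the filter, black bars are medians, dotted lines mark 2-fold and the panels have different horizontal scales. No pathway gene passes 2-fold in either pair, which is near the share of all genes (1.00% higher and 0.515% lower with clenbuterol, 0.868% and 1.14% under EPS by title). CREB targets have the highest median with clenbuterol (1.65).

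Genes induced by the known regulators of the brakes were read beside them, leaving the brakes out. Targets of CREB were read too, although CREB is not among the regulators named above for any brake. Among all 13788 genes of the clenbuterol pair, 1.00% reached 2-fold upward and 0.515% downward, the shares to set beside the counts that follow. With clenbuterol, 13 of 19 CREB targets were at least 2-fold higher and 0 lower, with a median log2 ratio of 1.65, Il6 the highest (4.53) and Atf3 the lowest (0.32). Of 12 measured glucocorticoid receptor targets 4 were higher and 0 lower, with a median of 0.29, Per1 highest (2.20) and Angptl4 lowest (−0.46). Per1 and Dusp1 are on both lists, and Btg2, Irs2 and Atf3 are CREB targets listed a second time elsewhere. Of 19 HIF targets 1 was higher, Vegfa (1.17), with a median of 0.06 and Pfkfb4 lowest (−0.28). Of 17 ATF4 targets none was past 2-fold, with a median of 0.01, Gdf15 highest (0.67) and Trib3 lowest (−0.31). Of 16 p53 targets 2 were higher, with a median of −0.03, Btg2 highest (1.86) and Fas lowest (−0.22). Of 15 FOXO targets 1 was higher, Irs2 (1.30), with a median of −0.02 and Pdk4 lowest (−0.25). The part of any of these regulators in the Ddit4 difference was not tested.

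Under EPS by title, 2 genes of these lists were at least 2-fold lower and 1 was higher, where 1.14% of all genes were lower and 0.868% higher. CREB targets had a median of −0.41 with 0 of 16 past 2-fold, Btg2 highest (0.49) and Pde4b lowest (−0.78). FOXO targets had a median of −0.42 with 0 of 15 past 2-fold, Trim63 highest (0.02) and Ccng2 lowest (−0.72). HIF targets had a median of −0.35, with 1 of 19 lower and 0 higher, Pfkfb4 highest (0.22) and Adm lowest (−1.36). ATF4 targets had a median of −0.17 with 0 of 18 past 2-fold. Ddit3, the stress factor CHOP, was highest there (0.98) and Fgf21 lowest (−0.88). Glucocorticoid targets had a median of −0.10, with Fam107a highest (1.11, past 2-fold) and Mt2 lowest (−1.41, past 2-fold), and p53 targets a median of −0.03, with Pmaip1 highest (0.69) and Aen lowest (−0.28).

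Between the culture pairs, 2 of these lists lay on the side of Sesn2. Of 18 measured ATF4 targets 14 were lower in both clenbuterol-pair libraries than in both EPS-pair libraries and 1 was higher, and of 19 HIF targets 15 were lower and 1 higher, against 34.7% and 25.1% of all genes. Ddit3 had a TPM of 50.9 and 49.7 in the clenbuterol pair, 206 in the EPS-titled library and 104 in the EPS-control-titled library. Sesn2 had the same order between the EPS libraries, and Ddit4 the opposite. Most ATF4 targets did not share the order of Ddit3: by title 8 of 18 had a ratio above 1 (median log2 −0.17). Vegfa, with 288 TPM under clenbuterol, 127 in its control and 229 and 238 in the EPS-titled and EPS-control-titled libraries, shared with Ddit4 the low value in the clenbuterol control. It was the only 1 of the 19 HIF targets at least 2-fold higher with clenbuterol, and their median log2 ratio there was 0.06. Unlike most HIF targets, Ddit4 overlapped between the culture pairs. The pairing of Sesn2 with ATF4 targets and of Ddit4 with HIF targets was chosen after their values were seen.

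**Figure D5:**
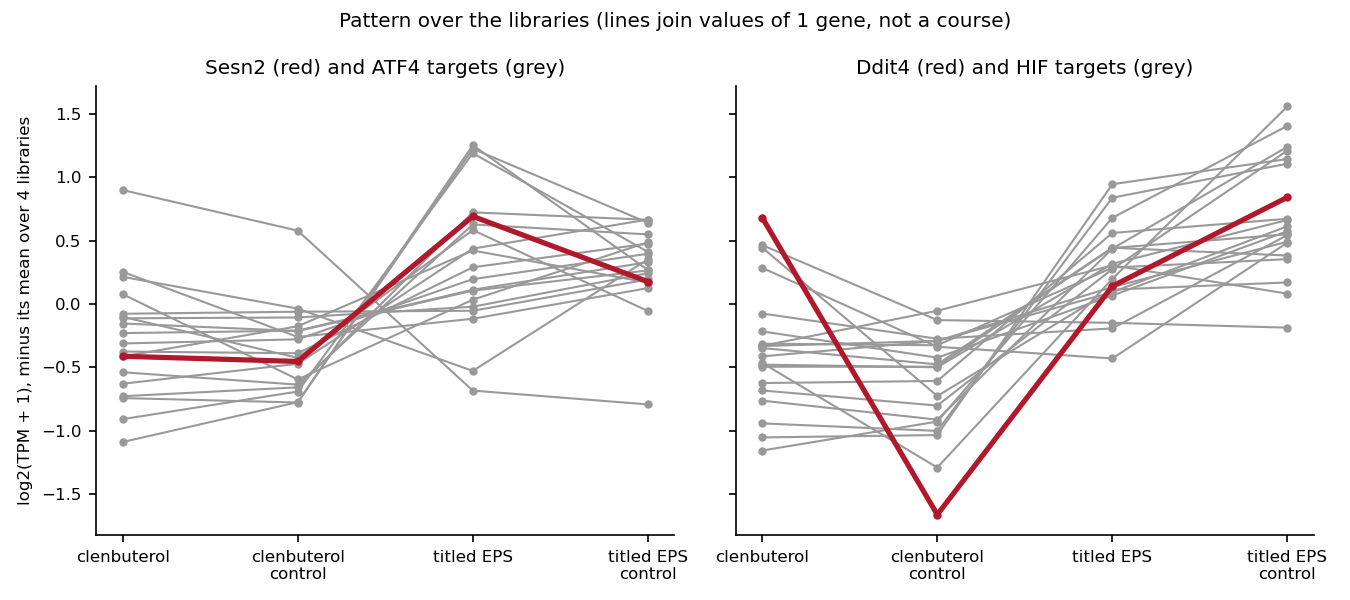
Log2(TPM + 1) minus its mean over the 4 libraries for Sesn2 (red) with 18 ATF4 targets (grey) and for Ddit4 (red) with 19 HIF targets (grey); lines join the values of 1 gene and the libraries have no order. Sesn2 is above its mean in both EPS libraries, as are 12 of 18 ATF4 targets, a share that was not counted over all genes. Of the 18, 14 are higher in both EPS libraries than in both clenbuterol libraries, against 34.7% of all genes. The Ddit4 value in the clenbuterol control lies below every HIF target.

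Genes with the most similar pattern over the 4 libraries were sought where TPM reached 5 in any library, leaving out unnamed gene models, by Euclidean distance between centred log2(TPM + 1) values. For Ddit4 the nearest were Ank2 (distance 1.05), Vegfa (1.18), Unc93a2 (1.19), Defb41 (1.21) and Zfp503 (1.21). Ank2 had a TPM of 5.83 with clenbuterol, 1.85 in its control, 2.80 in the EPS-titled library and 6.98 in the EPS-control-titled library. For Sesn2 the nearest lay closer: Myl9 (0.12), Pappa (0.13), Slc40a1 (0.14), Slc39a10 (0.15) and Lrig3 (0.17). Myl9 had a TPM of 136 and 143 in the clenbuterol pair, 320 in the EPS-titled library and 204 in the EPS-control-titled library. Each distance rests on 4 values from the same libraries and describes likeness only.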

How the data were processed

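RNA of 4 C2C12 myotube cultures was sequenced from TruSeq stranded mRNA libraries, per the labels' protocols. Reads were aligned with HISAT2 to mm10, per the submitters' processing notes. The authors deposited a joint table that holds, for each gene, estimated counts of reads, FPKM and TPM. Single tables for each library, also deposited, gave TPM for an alternative. The sources used here do not give the counting program, the annotation or the use of strand. Joint columns were assigned to samples through the data name of each sample's own file, and groups follow sample titles.

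Each pair was compared by log2(TPM + 1), where either library of the pair reached a TPM of 1, and 2-fold was the threshold. CPM ratios used TMM-scaled totals of rounded counts (edgeR 4.0.16, R 4.3.3) with exact Clopper-Pearson 95% intervals, which cover counting error only. Interval code was tested on simulated data. Alternatives were pseudocounts of 0.1 and 5, no filter, FPKM, unscaled CPM, DESeq2 1.42.0 size factors and the single tables. Python 3.11.15, numpy 2.4.6, pandas 2.3.3, scipy 1.17.1 and matplotlib 3.10.9 were used.

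The members and the 17 lists (196 entries, all found) were chosen with earlier results of these data known. The genes named are the 8 members, the highest and lowest gene of each pathway and regulator list per pair, and the 5 nearest patterns to Ddit4 and Sesn2; others were chosen after their values were seen. Coordinates in the files matched the RefSeq table of GRCm38.p6 for all 8 members, but the promoter table starts Tsc1 and Tsc2 farther downstream. 26 symbols turned into dates were restored from the RefSeq gene table by gene ID. A comparison of protein sequences was not run.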

Additional observations from a re-analysis of the deposited data

How the results depend on the processing

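Within the clenbuterol pair the log2 ratio of Ddit4 ran from 2.04 to 2.43 over the 8 other settings, the lowest at a pseudocount of 5, which shrinks ratios by construction, and Ddit4 remained the only brake past 2-fold in each. In the EPS pair it ran from −0.71 to −0.63, and no brake passed 2-fold. Sesn3 in the clenbuterol pair, at most 0.03 from 0, was the only member ratio to change sign. All 8 members passed the filter, so leaving it out changed none of their values, while the median of glucocorticoid targets with clenbuterol went from 0.29 to 0.12.

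Comparisons across the pairs, added after the data were seen, gave other values. Against the EPS-control-titled library the Ddit4 ratio of clenbuterol was −0.16 with 0 brakes past 2-fold, and against the EPS-titled library it was 0.54, where the 1 brake past 2-fold was Sesn2 (−1.10). The EPS-titled library against the clenbuterol control gave 1.80 for Ddit4 with 2 brakes past 2-fold, Ddit4 and Sesn2 (1.15). These alternatives change both the pair and the treatment, and the cause was not tested.

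Counts over all genes depend on the unit. In the clenbuterol pair 138 higher and 71 lower genes became 256 and 194 at a pseudocount of 0.1, 41 and 2 at 5, 54 and 10 in FPKM and 61 and 13 in TMM-scaled CPM. In the EPS pair 120 and 158 became 220 and 351, 9 and 36, 38 and 59, and 38 and 75. No replicate could be left out with 1 library a group, and no paired analysis was possible because each group holds a single library. Depth limits Ddit4l, with 54 to 130 counts, more than the other brakes.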

Other observations

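Some list genes separated the culture pairs further than any brake, for which the largest such gap was 1.55-fold (Sesn2). These genes were chosen after their values were seen. Txnip, which encodes an inhibitor of glucose uptake, stood at 93.7 and 98.4 TPM in the clenbuterol library and its control, against 4.12 and 5.75 in the EPS-titled and EPS-control-titled libraries. Bnip3, a mitophagy receptor gene, stood at 74.6 and 71.6 against 259 and 312.

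Pdcd4, a translation inhibitor gene, was like Eif4e in its units. Clenbuterol gave 35.9 TPM against 51.3, while counts were 1619 and 1641, a CPM ratio of 1.02 (0.947 to 1.09).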
